A study of Brachypodium distachyon with 6 samples.

Results

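A set of 81 genes of Brachypodium distachyon was clearly expressed in roots fed ammonium and close to silent in roots fed nitrate. The genes were chosen by their measured levels in the 6 libraries described here: a mean of 8 CPM or more over the ammonium libraries and a mean below 2 CPM over the nitrate libraries, among the 29435 features with a BRADI locus identifier (29627 features in all). CPM is the read count of a gene divided by all counts of its library, times 1000000. A mean of 8 CPM or more under ammonium was reached by 14338 locus features and a mean below 2 CPM under nitrate by 10118, of which the 81 genes are 0.801%. Because the difference between the treatments chose the genes, its size is described below and carries no test.

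All plants were of the inbred reference line Bd21 and carried no transgene or mutation that the labels name. Whole roots were taken after 19 days in hydroponic tanks holding 4.5 L, to which the seedlings had been moved when 7 days old. Nitrogen stood at 2.5 mM in every tank, supplied as 1.25 mM (NH4)2SO4 to the ammonium group (3 libraries) and as 1.25 mM Ca(NO3)2 to the nitrate group (3 libraries). Each library came from 12 pooled seedlings, and whether the pools of a treatment shared a tank is not given in the labels. The salts also differ in sulfate and calcium, and no library came from roots without nitrogen. Induction by ammonium, repression by nitrate and an effect of the counter-ion therefore cannot be told apart.

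Roots take up nitrate through dedicated transporters, reduce it to nitrite and then to ammonium, and use nitrate itself as a signal that alters gene expression. Ammonium enters through transporters of its own and is joined to glutamate by glutamine synthetase. Plants fed only ammonium acidify the medium, take up fewer cations such as potassium and calcium, and in many species grow less than plants fed nitrate. Which of these processes the 81 genes belong to cannot be said here. None of the 29627 identifiers (0 matches) occurs among the 31335 RefSeq genes used for names, so the genes are given by locus identifier, with no function, no sequence and no genome coordinates. Root and shoot marker lists could not be looked up for the same reason, and the tissue label was not checked. Gene lengths were not used either, so a higher CPM means a larger share of the reads of a library, not more transcripts than another gene.

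Library totals lay between 27525771 and 29547877 counts under ammonium and between 22470936 and 29115598 under nitrate. All 81 genes passed the filter on low counts. The edgeR quasi-likelihood test called all 81 higher under ammonium at an adjusted p below 0.05, where 19.2% of all tested features were called higher. In each of the 81 genes every ammonium library lay above every nitrate library, which held for 27.6% of all tested features. These counts follow from the way the genes were chosen and nothing is read from them.

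The genes spanned a wide range of levels and of differences. Their mean level under ammonium ran from 8.02 to 216 CPM, with a median of 12.4 CPM. Only 10 of the 81 reached 50 CPM and 4 reached 100 CPM. Their mean level under nitrate ran from 0.0254 to 1.91 CPM, with a median of 0.952 CPM. The median fold (ammonium over nitrate, from edgeR) was 17.0, with quartiles of 9.19 and 50.1 and a range of 4.51 to 1779. On the log2 scale the median was 4.09 for the 81 genes, against 0.004 over all tested features. Differences above 8-fold were found for 62 of the 81 and above 32-fold for 30. Over all tested features, these included, 219 were called higher above 8-fold and 61 above 32-fold.

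The word silent holds only loosely for many of the genes. No gene of the 81 was without counts in nitrate roots (0 genes with 0 counts in all 3 libraries). The sum over the nitrate libraries ran from 2 to 149 counts, with a median of 74. A nitrate mean of 1 CPM or more was found for 37 genes and a mean below 0.5 CPM for 22. At most 10 nitrate counts were found for 8 genes.

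**Figure D1:**
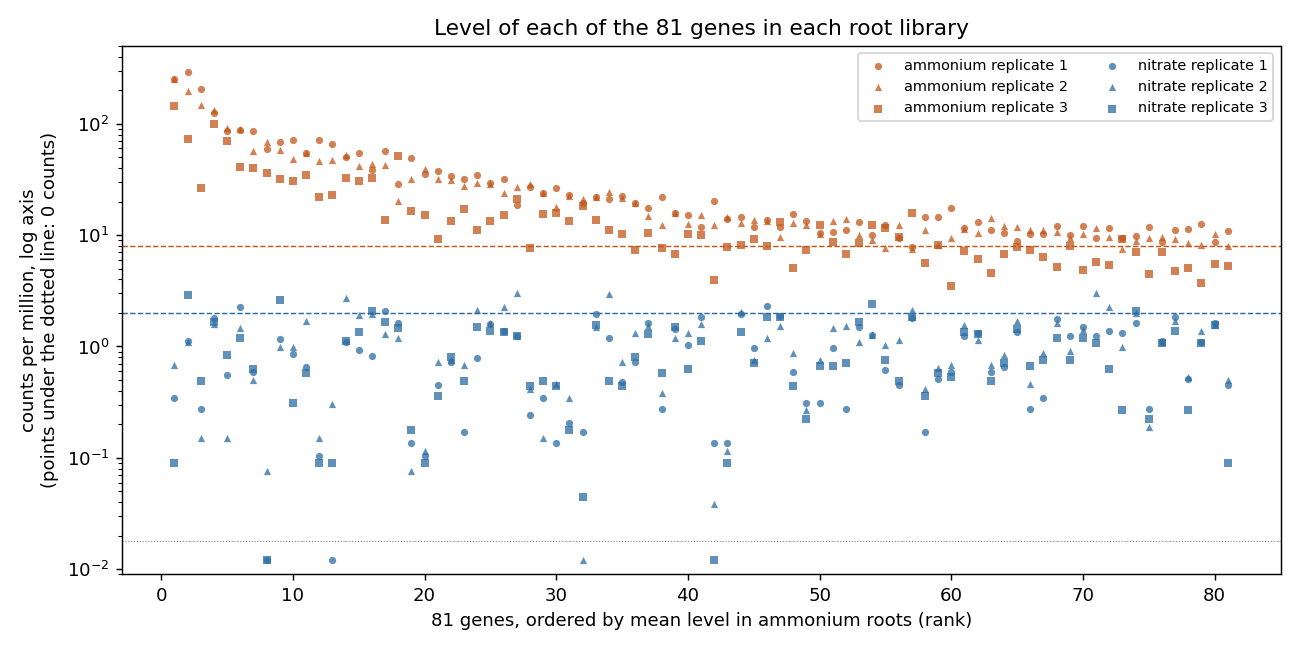
Level of each of the 81 genes (x axis, rank by mean level in ammonium roots) in CPM (y axis, log scale), with 1 point per library, ammonium in orange and nitrate in blue. Dashed lines mark the limits of 8 and 2 CPM that chose the genes. The squares of ammonium replicate 3 lie lowest among the ammonium points in 72 of the 81 genes.

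Together the 81 genes took 2812, 2462 and 1415 CPM of the ammonium libraries (replicates 1 to 3), against 73.9, 89.6 and 73.2 CPM of the nitrate libraries. The sum averaged 2230 ± 727 CPM under ammonium and 78.9 ± 9.29 CPM under nitrate (SD, n = 3 each). Ammonium replicate 3 was the lowest of the ammonium libraries and still lay far above all nitrate libraries. The 4 genes with the highest ammonium means held 29.0% of the summed ammonium mean. In whole roots, more cells that express a gene and more RNA per cell cannot be told apart.

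BRADI_2g45143v3 took the largest share of ammonium reads of the 81 genes. It stood at 252, 253 and 143 CPM in ammonium roots and at 0.343, 0.685 and 0.089 CPM in nitrate roots (log2 fold change 9.10, SE 0.41). The lowest ammonium library lay more than 100-fold above the highest nitrate library, and replicate 3 was the lowest of both treatments. When nitrate replicate 2 was left out, the log2 fold change of BRADI_2g45143v3 came to 9.83.

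BRADI_3g31787v3 was next to BRADI_2g45143v3 in fold among the genes above 100 CPM, but much less even. Its levels were 205, 148 and 26.4 CPM under ammonium and 0.275, 0.152 and 0.490 CPM under nitrate (log2 fold change 8.70, SE 0.95). Ammonium replicate 3 held 0.150 of the mean of replicates 1 and 2, the lowest such ratio of the 81 genes. BRADI_2g19010v3 was the most even of the 4 genes above 100 CPM. It gave 124, 132 and 98.8 CPM under ammonium and 1.79, 1.60 and 1.65 CPM under nitrate (log2 fold change 6.12, SE 0.15).

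BRADI_2g52530v3 was high in all ammonium libraries, with 86.1, 91.4 and 70.4 CPM, against 0.550, 0.152 and 0.846 CPM in nitrate libraries (161-fold). BRADI_3g38045v3 gave 86.3, 57.4 and 40.4 CPM under ammonium and 0.584, 0.495 and 0.623 CPM under nitrate (107-fold). Ammonium libraries were more uneven for the second gene, at a coefficient of variation (SD over mean) of 37.8% against 13.2% for the first. BRADI_2g48160v3 followed with 72.2, 47.9 and 30.9 CPM under ammonium and 0.859, 0.990 and 0.312 CPM under nitrate (66.8-fold).

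BRADI_2g52295v3 and BRADI_5g15710v3 were also among the 12 genes with the highest ammonium means. BRADI_2g52295v3 stood at 69.1, 58.2 and 31.6 CPM under ammonium and at 1.17, 0.990 and 2.63 CPM under nitrate (33.8-fold). BRADI_5g15710v3 stood at 54.6, 54.8 and 34.7 CPM under ammonium and at 0.653, 1.71 and 0.579 CPM under nitrate (47.9-fold). A single nitrate library was raised in each, replicate 3 in BRADI_2g52295v3 and replicate 2 in BRADI_5g15710v3. Without nitrate replicate 2 the log2 fold change of BRADI_5g15710v3 moved to 6.26, against 5.58 with it.

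The largest fold of the set belonged to BRADI_2g28470v3, which was almost without reads in nitrate roots. It had 58.9, 68.4 and 36.1 CPM under ammonium and 0, 0.0762 and 0 CPM under nitrate, that is 4632 counts against 2. The ratio of these counts, scaled to library totals, was 2126 with an exact 95% interval of 588 to 17557, which covers counting error only. Both nitrate counts came from nitrate replicate 2. With that library left out the fitted log2 fold change was 13.53, a value that depends on the prior count and is no bound, and with nitrate replicate 1 left out it was 10.21, against 10.80 with all libraries. BRADI_5g17470v3 had 35.6, 39.2 and 15.1 CPM under ammonium and 0.103, 0.114 and 0.0890 CPM under nitrate (276-fold, 8 nitrate counts in all). BRADI_1g24620v3 had 20.4, 12.4 and 3.96 CPM under ammonium and 0.137, 0.0381 and 0 CPM under nitrate (177-fold, 5 nitrate counts). Without nitrate replicate 1, which held 4 of the 5, its log2 fold change was 8.92 in place of 7.47.

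Of the 81 genes, 13 lay directly beside another gene of the set in the order of locus numbers. They formed 6 runs, 5 of 2 genes and 1 of 3 genes. Position was not used to choose the genes. The order was read from the identifiers, in which the digit before g names the chromosome and the number after it the place along it. The table lists only features with reads, so genes without any count are not in this order.

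The run of 3 on chromosome 3 held BRADI_3g16645v3, BRADI_3g16650v3 and BRADI_3g16655v3. The middle gene was the strongest in reads, with 291, 196 and 73.1 CPM under ammonium and 1.13, 1.10 and 2.89 CPM under nitrate. BRADI_3g16655v3 gave 70.8, 46.5 and 21.9 CPM under ammonium and 0.103, 0.152 and 0.0890 CPM under nitrate. BRADI_3g16645v3 gave 17.6, 9.44 and 3.52 CPM under ammonium and 0.584, 0.685 and 0.534 CPM under nitrate. All 3 genes were highest in ammonium replicate 1 and lowest in ammonium replicate 3, and none overlapped between treatments. Their log2 fold changes were 6.80 (SE 0.60), 8.58 (SE 0.63) and 4.05 (SE 0.59) in that order. The value of BRADI_3g16645v3 was 3.40 without ammonium replicate 1. The tested genes on either side did not share the pattern: BRADI_3g16640v3 was lower under ammonium (log2 fold change -0.68, SE 0.11, edgeR adjusted p = 0.0017) and BRADI_3g16660v3 slightly higher (0.36, SE 0.13, edgeR adjusted p = 0.047).

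BRADI_1g74970v3 and BRADI_1g74980v3 had the highest folds among the 5 runs of 2 genes, at 241-fold and 337-fold. BRADI_1g74980v3 had 65.8, 47.4 and 22.8 CPM under ammonium and 0, 0.305 and 0.0890 CPM under nitrate. BRADI_1g74970v3 had 49.1, 31.6 and 16.4 CPM under ammonium and 0.137, 0.0762 and 0.178 CPM under nitrate. Each had only 10 nitrate counts in all, and ammonium replicate 3 held 0.403 and 0.407 of the mean of replicates 1 and 2. The log2 fold change of BRADI_1g74980v3 was 10.02 without nitrate replicate 2 and 7.75 without nitrate replicate 1, against 8.39 with all libraries. BRADI_1g74962v3, the gene before this run, did not pass the test (log2 fold change 0.11, SE 0.17, edgeR adjusted p = 0.65).

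BRADI_2g18997v3 lay beside BRADI_2g19010v3 and was the most even gene of the set. It had 19.6, 21.0 and 18.3 CPM under ammonium and 0.172, 0 and 0.0445 CPM under nitrate, with a coefficient of variation of 6.89% over the ammonium libraries. Of its 6 nitrate counts 5 came from nitrate replicate 1, and its log2 fold change was 9.59 without that library and 7.89 with it. BRADI_1g42513v3 and BRADI_1g42516v3 formed another run. BRADI_1g42513v3 gave 32.2, 27.4 and 17.2 CPM under ammonium and 0.172, 0.685 and 0.490 CPM under nitrate. BRADI_1g42516v3 gave 23.1, 22.6 and 13.5 CPM under ammonium and 0.206, 0.343 and 0.178 CPM under nitrate. Ammonium replicate 3 held 0.578 and 0.590 of the mean of the other ammonium libraries in this run.

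The remaining runs were BRADI_3g01850v3 with BRADI_3g01860v3, and BRADI_5g12930v3 with BRADI_5g12940v3. BRADI_3g01850v3 had 88.1, 90.3 and 41.1 CPM under ammonium and 2.27, 1.45 and 1.20 CPM under nitrate, and BRADI_3g01860v3 12.8 ± 5.23 CPM under ammonium and 1.38 ± 0.175 CPM under nitrate (SD, n = 3 each). BRADI_5g12940v3 had 50.3, 51.9 and 32.3 CPM under ammonium and 1.10, 2.70 and 1.11 CPM under nitrate. BRADI_5g12930v3 had 11.0, 13.9 and 6.72 CPM under ammonium and 0.275, 1.52 and 0.712 CPM under nitrate. Both genes of the chromosome 5 run were highest among nitrate libraries in replicate 2, and the log2 fold change of BRADI_5g12930v3 was 4.46 without it and 3.65 with it. The genes flanking this run were also higher under ammonium, BRADI_5g12920v3 by 2.83-fold (SE 0.16 on the log2 scale, edgeR adjusted p = 0.00016) and BRADI_5g12960v3 by 2.05-fold (SE 0.25 on the log2 scale, edgeR adjusted p = 0.012).

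**Figure D2:**
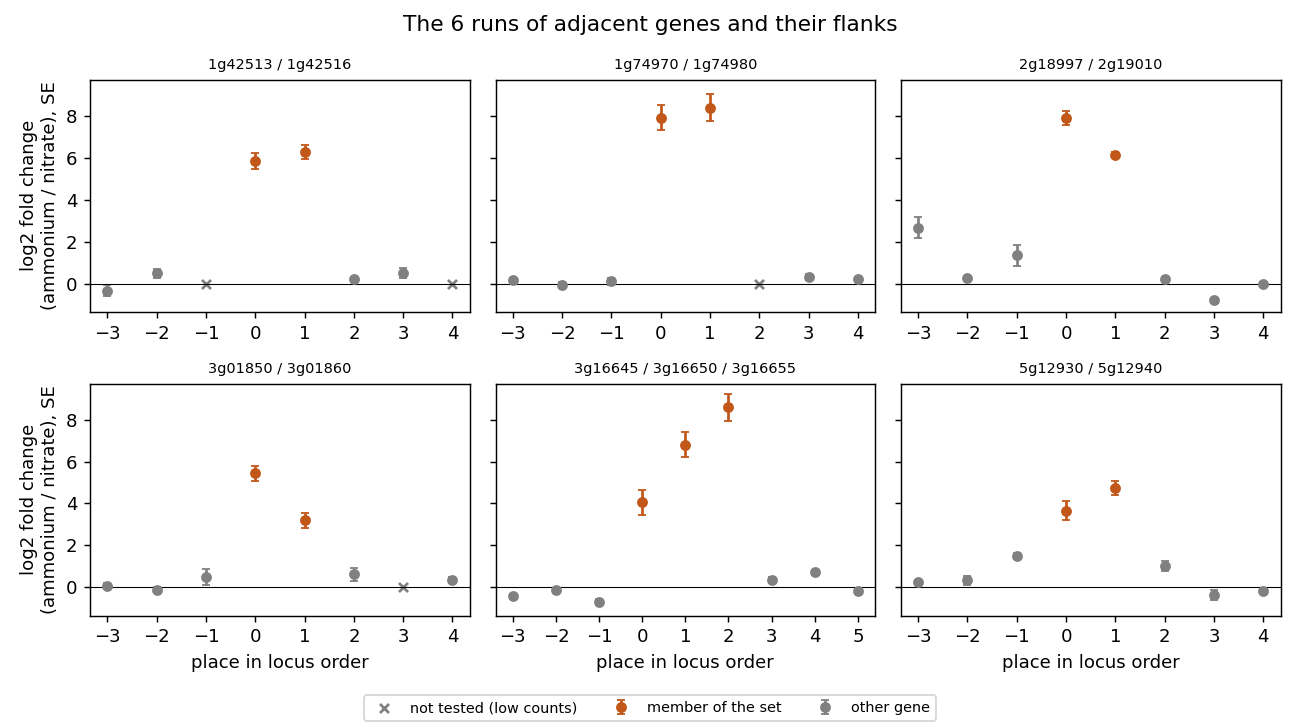
Log2 fold change (ammonium over nitrate, y axis, bars are SE) by place in locus order (x axis, 0 is the first gene of the run) for the 6 runs and 3 genes on either side; the titles give the genes of each run. Genes of the set (orange) lie between 3.19 and 8.58, and the flanking genes that were tested (grey) between -0.76 and 2.67. Crosses mark genes with too few counts to be tested.

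Genes that lay next to the 81 but were not among them took no part in the choice. Of 147 such neighbours, 112 had enough reads to be tested. The edgeR test (adjusted p below 0.05) called 40 of them higher and 20 of them lower with ammonium and left 52 without a call. The share called higher was 35.7%, against 18.9% of the 23544 tested locus features outside the set. The share called lower was 17.9%, against 22.3%. A rise of more than 2-fold was found for 27 neighbours, or 24.1%, against 5.08%. The difference in shares has no test, since neighbouring genes are not independent replicates.

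The same share was counted farther from the set. At 2 places from the nearest gene of the set 12 of 111 tested genes (10.8%) were higher by more than 2-fold. At 3, 4, 5 and 6 places the share was 7.02%, 8.77%, 6.19% and 8.11%. Of the 64 tested neighbours whose locus number differed by at least 10 from that of the set gene, 15 (23.4%) were higher by more than 2-fold; this division was chosen after seeing the data. The labels do not state whether reads were counted by strand or how reads in overlapping genes were treated, and the part played by reads shared between a gene of the set and its neighbour was not tested.

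**Figure D3:**
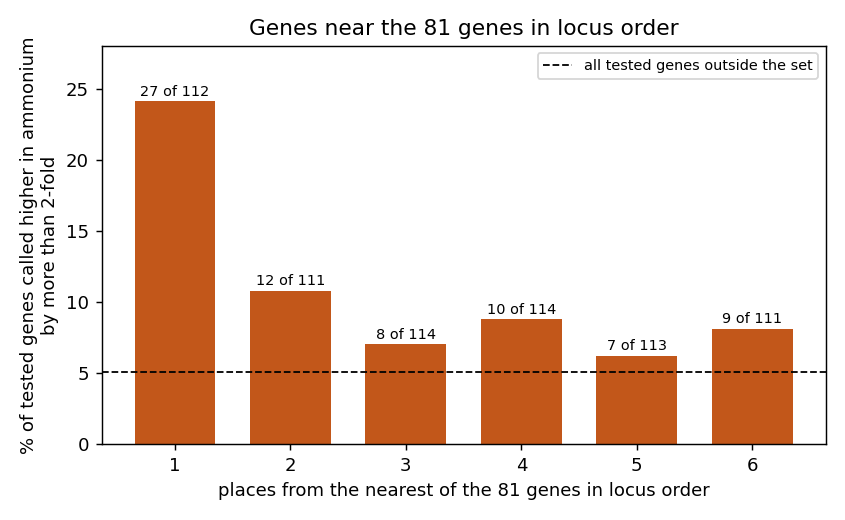
Share of tested genes outside the set that were called higher under ammonium by more than 2-fold (y axis, percent), by the number of places to the nearest of the 81 genes in locus order (x axis). The bar at 1 place stands at 24.1% (27 of 112), and the dashed line marks the 5.08% of all tested locus features outside the set.

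BRADI_3g31777v3, beside BRADI_3g31787v3, was the neighbour with the most reads among those that changed by more than 8-fold and are named here. It stood at 1079, 704 and 140 CPM under ammonium and at 4.26, 5.71 and 12.0 CPM under nitrate (88.3-fold, log2 6.46, SE 0.78, edgeR adjusted p = 0.0003). It lay outside the set because its nitrate mean of 7.31 CPM was above the limit. Ammonium replicate 3 held 0.157 of the mean of replicates 1 and 2 in this gene and 0.150 in BRADI_3g31787v3, and nitrate replicate 3 was the highest nitrate library in both. Its log2 fold change was 5.86 without ammonium replicate 1.

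The other named neighbours were weaker in reads. BRADI_2g61607v3 had 4.20, 6.74 and 2.36 CPM under ammonium and 0.343, 0.0381 and 0.0445 CPM under nitrate (log2 4.80, SE 0.63, edgeR adjusted p = 0.00048). Leaving out nitrate replicate 1 moved its log2 value to 6.59. BRADI_2g36612v3 had 7.51, 4.97 and 7.08 CPM under ammonium and 0.206, 0.228 and 0.267 CPM under nitrate (log2 4.77, SE 0.27, edgeR adjusted p = 9.2e-06). BRADI_2g17525v3 had 41 counts under ammonium and 0 under nitrate, at least 12.5-fold higher when 3 counts are taken as the limit over the nitrate group (edgeR adjusted p = 0.0026). The reverse also occurred: BRADI_1g21416v3, beside BRADI_1g21420v3, was the only tested neighbour lower by more than 8-fold and was picked after its values were seen. It had 19.5, 19.9 and 13.6 CPM under ammonium and 189, 181 and 139 CPM under nitrate (log2 -3.28, SE 0.18, edgeR adjusted p = 8.9e-06).

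The spread among the ammonium libraries was compared between the 81 genes and other expressed genes, without a test. The median coefficient of variation over the ammonium libraries was 33.5% in the set (range 6.89% to 72.1%). It was 6.62% in the 14257 other locus features at 8 CPM or more under ammonium. It was 23.9% in the 194 of these that were called higher by more than 4-fold. Spread within ammonium was not used to choose the genes.

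Ammonium replicate 3 was the lowest ammonium library in 72 of the 81 genes (88.9%), against 39.5% of the other expressed features and 78.9% of the 194 other strongly higher features. The ratio of replicate 3 to the mean of replicates 1 and 2 had a median of 0.567 in the set, with quartiles of 0.440 and 0.731. The same median was 1.0 in the other expressed features and 0.670 in the 194. In 32 genes of the set ammonium replicate 3 lay under 8 CPM, compared with 1 gene in replicate 1 and 3 genes in replicate 2. The median ratio of replicate 2 to replicate 1 was 0.916 in the set and 0.999 in the other expressed features. Counting 1 gene per run, replicate 3 was lowest in 65 of 74. Library totals were 29547877, 27746315 and 27525771 counts in ammonium replicates 1, 2 and 3. The reason for the lower values in replicate 3 was not tested. Without ammonium replicate 3 the median log2 fold change of the 81 genes was 4.38. All 81 were called higher in that fit, against 18.4% of the tested locus features outside the set. Those calls follow from the way the genes were chosen.

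**Figure D4:**
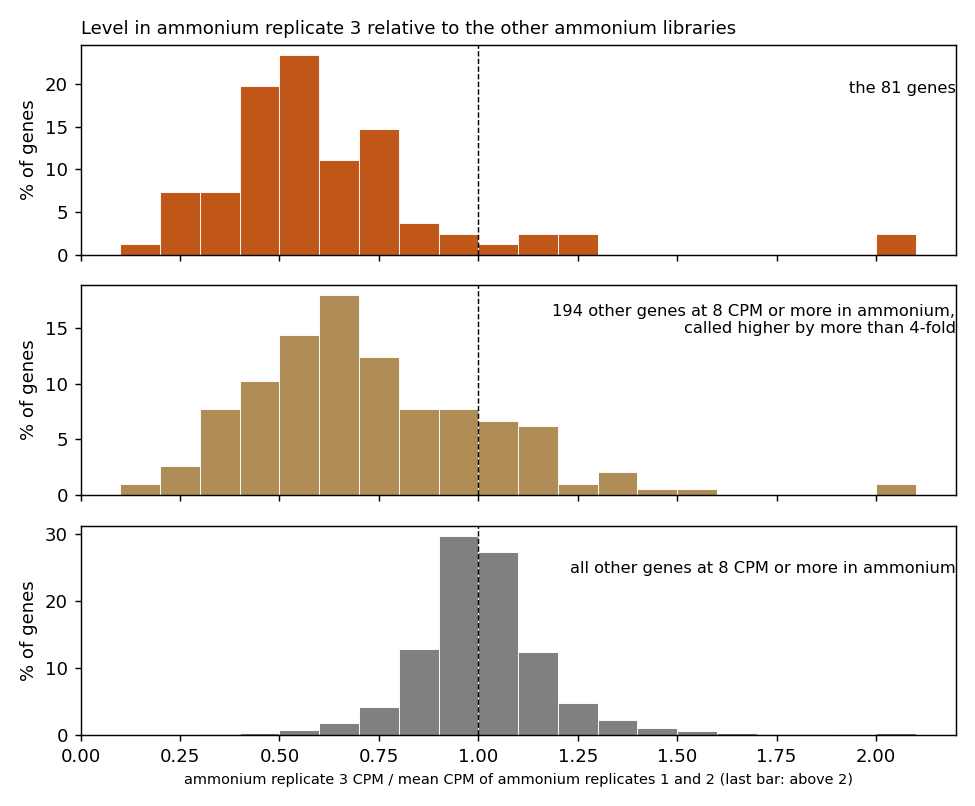
Level in ammonium replicate 3 divided by the mean of ammonium replicates 1 and 2 (x axis) for the 81 genes (top), for 194 other genes called higher by more than 4-fold (middle) and for all other genes at 8 CPM or more under ammonium (bottom); bars give the percent of genes in each step of the ratio. The medians are 0.567, 0.670 and 1.0, and the dashed line marks equal levels.

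The genes did not all follow this library in the same measure. The largest coefficients of variation were those of BRADI_3g31787v3 (72.1%), BRADI_3g16645v3 (69.3%), BRADI_1g24620v3 (67.1%) and BRADI_3g16650v3 (58.6%), all with replicate 3 lowest. The smallest were those of BRADI_2g18997v3 (6.89%), BRADI_1g11930v3 (9.31%), BRADI_4g06275v3 (12.1%) and BRADI_3g12490v3 (12.6%). BRADI_4g06275v3 had 10.1, 9.51 and 7.92 CPM under ammonium and 1.24, 0.914 and 0.757 CPM under nitrate. BRADI_3g12490v3 had 9.51, 7.46 and 9.19 CPM under ammonium and 1.31, 0.990 and 0.267 CPM under nitrate. Replicate 3 was the lowest ammonium library in the first of these and lay between the others in the second.

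Only 5 of the 81 genes were highest in ammonium replicate 3, and they are named here after their values were seen. BRADI_5g18622v3 had 28.6, 20.1 and 51.3 CPM under ammonium and 1.61, 1.18 and 1.47 CPM under nitrate. BRADI_5g21730v3 had 7.78, 7.53 and 15.8 CPM under ammonium and 1.79, 2.13 and 1.82 CPM under nitrate. In both of these genes replicate 3 stood at more than 2-fold the mean of the other ammonium libraries (ratios of 2.11 and 2.06). BRADI_1g11930v3, BRADI_2g41010v3 and BRADI_3g22070v3 were highest in replicate 3 by smaller ratios of 1.17, 1.23 and 1.29.

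Among nitrate roots, replicate 2 was the highest library in 42 of the 81 genes (51.9%), replicate 1 in 23 and replicate 3 in 16. Among the 4227 other tested locus features with a nitrate mean below 2 CPM, replicate 2 was the highest in 33.0%. In the 194 other features called higher by more than 4-fold it was the highest in 43.3%, so this lean was not particular to the set. In 9 genes nitrate replicate 2 reached 2 CPM or more. Examples are BRADI_5g12940v3, described above, and BRADI_1g06904v3, with 18.7, 27.1 and 21.1 CPM under ammonium and 1.24, 3.05 and 1.25 CPM under nitrate. Leaving out nitrate replicate 2 moved the fold of 7 genes by more than 1.5 times, and their direction and call remained. Beside those given above these were BRADI_1g10200v3, with a log2 fold change of 4.40 without that library and 3.55 with it, and BRADI_3g46030v3, with 2.93 and 2.30.

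The pattern was also read in libraries left out of a choice of genes. The limits were those of the rule over all 6 libraries, so the reading is not independent of them. Of the genes chosen with numbers 1, 2 and 3 left out, 67, 74 and 76 were in the set of 81. Whether libraries left out shared a tank with those that chose is not given. The limits were applied to the 4 libraries that do not carry a given replicate number, and the chosen genes were looked up in the 2 libraries that do. With the libraries numbered 1 left out, 73 genes were chosen, and 63 of them (86.3%) were at 8 CPM or more in ammonium replicate 1 and below 2 CPM in nitrate replicate 1. With number 2 left out, 64 of 81 (79.0%) met both limits. With number 3 left out, 41 of 91 (45.1%) did. In ammonium replicate 3 only 46 of those 91 reached 8 CPM, and in nitrate replicate 3 84 stayed below 2 CPM. The ammonium library left out was above the nitrate library left out in all 73, 81 and 91 genes, and more than 4-fold above it in 70, 79 and 82. Of all 29435 locus features, 0.217% to 0.336% met both limits in such a pair of libraries. The share of them with ammonium above nitrate, or more than 4-fold above it, is not given here, so those counts have no background.

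The limits cut through a continuous range. Just inside the ammonium limit lay BRADI_5g10552v3 at 8.02 CPM, BRADI_3g30847v3 at 8.11 CPM and BRADI_3g20922v3 at 8.15 CPM under ammonium. Just outside it lay BRADI_3g23210v3 at 7.93 CPM, with BRADI_2g61040v3 and BRADI_2g18443v3 both at 7.83 CPM. Just inside the nitrate limit lay BRADI_5g21730v3 at 1.91 CPM, BRADI_3g10830v3 at 1.90 CPM and BRADI_1g06904v3 at 1.84 CPM under nitrate (means). Just outside it lay BRADI_1g70730v3 at 2.08 CPM, BRADI_2g03930v3 at 2.11 CPM and BRADI_2g58780v3 at 2.13 CPM. Only 34 of the 81 genes kept to both limits in each of the 6 libraries.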

How the data were processed

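Read counts for 6 root libraries were used as the authors deposited them, in 1 table and without normalization. HISAT2 and HTSeq are named in the submitters' processing notes. Versions, genome build and counting options are not stated in the labels or the table. Per the labels' protocols the libraries were made from poly-A RNA with random priming.

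CPM values were computed with the column total. Counts were tested over 23694 features with the quasi-likelihood test of edgeR 4.0.16 (R 4.3.3), after filterByExpr (minimum count 10, minimum total 15, which removed 5933 features) and TMM scaling. Nitrogen source was the only term, with Benjamini-Hochberg adjustment over all tested features. SE is the absolute log2 fold change over the root of the F statistic. The test was checked on simulated counts. DESeq2 1.42.0 was an alternative.

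Between libraries of 1 treatment the chi-square over its degrees of freedom was at least 6.88, so all 6 libraries were kept. That lowest value was for ammonium replicates 1 and 2. Ammonium replicate 3 gave 28.7 against replicate 1 and 23.8 against replicate 2, the highest of all pairs. Pairs of nitrate libraries gave 12.5 to 16.5. Separate tanks are not stated for the pools, so p-values cover only the spread among these libraries, which may be technical. Deviations from group means correlated at 0.1127 to 0.213 between libraries of the same number. Correlations between different numbers were negative, which partly follows from subtracting the group means and is no separate evidence. The numbers may therefore pair the libraries, and a refit added the replicate number to the model as a block. Unless a refit is named, the SE, adjusted p-values and calls given come from the fit without this block.

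The genes and lists were chosen with earlier results of these data known. Genes named are the 12 highest under ammonium, the 8 largest folds, all runs, the 3 nearest each side of each limit, the 4 largest and 4 smallest coefficients of variation, and up to 4 neighbours changed more than 8-fold. The gene and marker lists were not tested (0 lists), since identifiers carried no names.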

Additional observations from a re-analysis of the deposited data

How the results depend on the processing

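All 81 genes kept an adjusted p under 0.05 and their direction in 11 refits. So did the 42 features named by the rules given above. Other genes named in the text, such as those flanking the runs, were not part of this count. The refits used other scalings, no filter, DESeq2, the replicate block, and each library left out. Of the tested locus features outside the set, 12.7% to 20.4% were called higher in these refits. The 81 genes were chosen on this contrast, so nothing is read from their calls. The number of genes in the set depended on the limits. It was 44 with a nitrate limit of 1 CPM, 130 with an ammonium limit of 5 CPM, 35 with 16 CPM, and 34 when every library had to pass. Leaving out 1 library gave 74 to 93 genes, and 119 genes met a nitrate limit of 3 CPM. Called neighbours numbered 85 higher, 63 lower and 47 higher by more than 2-fold among 337 tested genes up to 3 places away. At locus numbers at least 10 apart they numbered 22, 11 and 15 of 64, a smaller total by construction. Leaving out 1 library gave 31 to 42 neighbours called higher. With the replicate block 44 neighbours were higher, 22 lower and 26 higher by more than 2-fold, and 10526 features were called in place of 9800. Over the 3 rounds of choice in 4 libraries, 68.6% of 245 choices met both limits in the libraries left out. Many genes were chosen in more than 1 round, so these are not separate genes. The rounds differed, with 86.3%, 79.0% and 45.1% for numbers 1, 2 and 3. Alternatives for gene lists were not run. At 2 to 10 nitrate counts the folds of 8 genes are limited by depth.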

Other observations

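By the chromosome digit in their identifiers, the 81 genes lay on all 5 chromosomes. Chromosomes 1 and 2 held 21 genes each, chromosome 3 held 16, chromosome 4 held 9 and chromosome 5 held 14. Chromosome 5 thus had 17.3% of the set and 9.32% of the tested locus features, and chromosome 4 had 11.1% of the set and 16.3% of the tested locus features. These shares have no test, and the chromosome 5 genes include 1 run and several genes close to each other in number. Over all 81 genes, those in runs included, the median distance to the nearest other gene of the set was 83 places, and 21 had another within 10 places.

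Locus numbers that are not multiples of 10 were found for 31 of the 81 genes (38.3%). The share was 32.6% of the 23621 tested locus features and 22.7% of the 14335 at 8 CPM or more under ammonium with a chromosome digit. The labels do not say what such a number means for a gene model.

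The mirror image of the limits, a mean below 2 CPM under ammonium and of 8 CPM or more under nitrate, was met by 38 locus features. Ammonium replicate 3 was the lowest ammonium library in 72 of the 81 genes of the set, and it was the highest in 27 of these 38. In the other features at 8 CPM or more under ammonium, replicate 3 was the lowest in 39.5% and the highest in 39.7%. The 38 features lie below 2 CPM under ammonium and were not compared with other features at such levels. Ammonium replicate 3 thus lay on the nitrate side of the other ammonium libraries in most genes of both sets. Both sets were chosen by the treatment difference, and the reason was not tested.

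BRADI_5g17330v3, beside BRADI_5g17325v3 of the set, had more reads under ammonium than any gene of the set and is named after its values were seen. It stood at 852, 788 and 334 CPM under ammonium and at 91.0, 104 and 91.3 CPM under nitrate (6.82-fold, log2 2.77, SE 0.31, edgeR adjusted p = 0.00021). Ammonium replicate 3 held 0.408 of the mean of the other ammonium libraries.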
